A study of Mus musculus with 5 samples.

Results

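Skin of Xpa mutant mice was compared with skin of wild-type (WT) mice 3 h after UVB, with 1 array for each genotype. A probe entered the comparison when it was not masked by the scanner software on either array and was above background on at least 1 of them. Of 34967 gene probes on an array, 9433 met this rule and 7440 of those carried a single gene symbol. They gave 6930 genes, out of 18563 named genes on the array, each read by its brightest probe.

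The Xpa mutant array at 3 h and the WT array at 3 h both came from back skin of hairless albino mice that had received UVB at 1 kJ per square metre, and genotype is the one difference between them that the labels give. An Xpa mutant and a WT array at 24 h after the same dose and an array of unirradiated WT skin are used beside them. Total RNA was extracted with Trizol, labelled with Cy5 and hybridised to one-colour CodeLink oligonucleotide arrays. The series concerns the chemokine Cxcl1 and the inflammation that UVB causes in Xpa deficient mice. The nature of the Xpa allele, the age and sex of the mice, and whether an array held RNA of 1 mouse or of a pool were not stated in the labels. Unirradiated mutant skin was not analysed here, so every difference is a difference in level after UVB and not in response to it.

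XPA is a scaffold protein of nucleotide excision repair. It binds the opened DNA around a bulky lesion, such as the pyrimidine dimers that UVB makes, and helps to place the other repair factors before the damaged strand is cut. Cells without it remove these lesions poorly, transcription stalls on them, and people with inherited loss of XPA have xeroderma pigmentosum. In skin, UVB makes keratinocytes release chemokines and cytokines and switch on early response and wound-type genes within hours, while the hair follicle makes hair keratins on its own growth schedule.

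Apart from the positive control spots, all values are log2 levels of background-corrected, quantile-normalized intensity. A difference is the Xpa mutant minus WT on that scale. With 1 array per group there is no test, and a gene is counted as higher or lower at a difference of at least 1, which is 2-fold. Where a gene was below background on 1 array, its fold is a bound ("at least"), set against the higher of the dim value and the lowest above-background value of that array. The counts use the difference itself, so a counted gene can have a bound under 2-fold. Levels of different genes are not compared, because each probe has its own brightness.

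The genotypes were close for most genes. The median difference over the 6930 genes was 0.01, with a robust SD of 0.29, and across the 5472 genes above background on both arrays the levels had a Pearson correlation of 0.965. At the 2-fold threshold the mutant was higher for 78 genes (1.13% of those compared) and lower for 69 (0.996%). Most of these calls rest on 1 dim array (60 of the 78 and 58 of the 69), and among the 5472 genes above background on both, 18 (0.329%) were higher and 11 (0.201%) lower. Of the calls that rest on 1 dim array, 21 higher and 6 lower genes have a bound that itself reaches 2-fold. The positive control spots (30 probes with 10 spots each) give the noise between spots only. The SD between spots of a probe had a median of 0.13 on both the mutant and the WT array. These spots were background corrected but not quantile normalized, and before that step the control probes averaged 0.19 higher on the mutant array. Around that shift, differences of control probe means between the arrays had an SD of 0.11 and reached 0.36 at most. Xist, expressed from the inactive X chromosome, was at 7.25, below background, on the mutant array and 7.59 on the WT array, and the Y-linked Ddx3y, Eif2s3y, Kdm5d and Uty were below background on both. On the 24 h arrays Eif2s3y was at 7.99, above background, in the mutant and 6.42, below it, in WT, and the labels give no sex. Their part in the results was not tested.

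**Figure D1:**
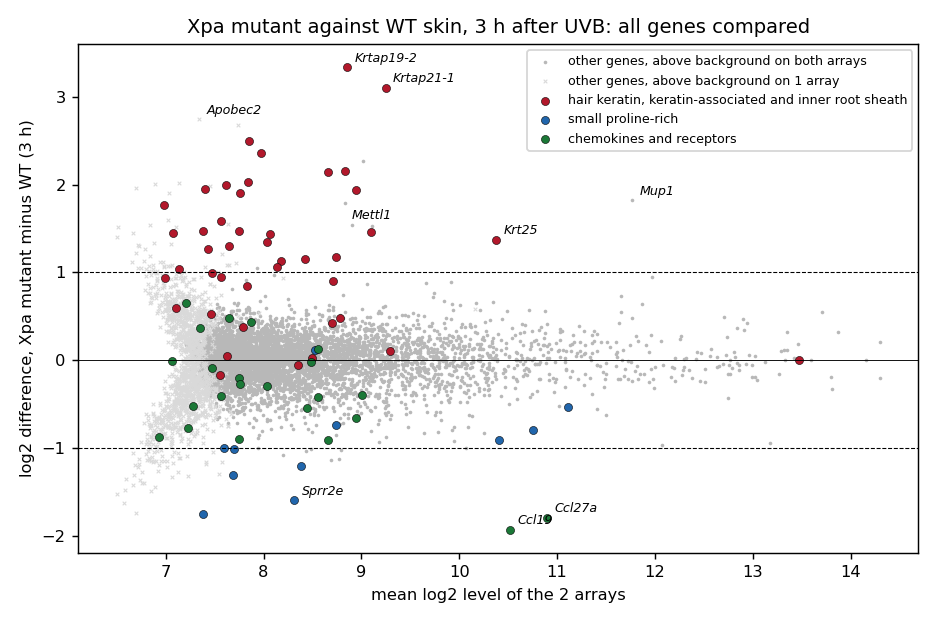
Each point is 1 of the 6930 genes compared. The x axis is the mean log2 level of the Xpa mutant and WT arrays at 3 h, the y axis the log2 difference (Xpa mutant minus WT), and dashed lines mark 2-fold. Krtap19-2, Krtap21-1 and other hair genes (red) lie highest, Ccl19 and Ccl27a (green) and small proline-rich genes such as Sprr2e (blue) are among the lowest, and grey crosses are genes above background on 1 array only.

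Xpa itself was read first. Its probe was at 6.64 on the mutant array and 7.13 on the WT array at 3 h, both below background, so the pair gives no fold at this time. At 24 h it was at 6.42 on the mutant array, below background, and at 7.55 on the WT array, above it, and unirradiated WT skin had 7.49. Whether the probe lies in the altered part of the gene is not known here. Of 10 keratinocyte markers, 8 were above background on both arrays. Dsg3, a desmosomal cadherin, was at 6.65, below background, in the mutant and 7.40 in WT, and Ivl, involucrin, was below background on both. Krt10, a keratin of the upper epidermis, was at 14.03 in the mutant and 13.70 in WT.

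The largest differences upward belonged to the hair shaft. Hair keratins form its filaments, and keratin-associated proteins cross-link them. The mutant was past 2-fold above WT for 23 of 31 such genes compared and past 2-fold below it for 0, against 1.13% of all genes above. Their median difference was 1.43, against 0.01 over all genes, and 30 of the 31 lay above 0. Among the 15 measured on both arrays, 9 were higher and the median was 1.16. Over the 3 members above background on all 5 arrays the median was 0.48. The stretch before the start is printed for Krtap21-1 and Krtap19-2 of this list, and for Krt25 and Krt71 of the inner root sheath list below. Each holds the core letters of a TATA box, here in capitals.

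Krtap21-1: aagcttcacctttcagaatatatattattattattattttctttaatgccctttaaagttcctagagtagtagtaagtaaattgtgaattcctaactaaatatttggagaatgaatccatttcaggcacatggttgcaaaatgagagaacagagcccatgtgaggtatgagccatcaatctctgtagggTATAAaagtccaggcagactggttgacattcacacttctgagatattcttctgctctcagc
Krtap19-2: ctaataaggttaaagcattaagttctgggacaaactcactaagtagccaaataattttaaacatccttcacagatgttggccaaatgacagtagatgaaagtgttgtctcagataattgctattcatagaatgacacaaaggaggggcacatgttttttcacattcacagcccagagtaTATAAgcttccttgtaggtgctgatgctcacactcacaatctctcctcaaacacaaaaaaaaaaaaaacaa
Krt25: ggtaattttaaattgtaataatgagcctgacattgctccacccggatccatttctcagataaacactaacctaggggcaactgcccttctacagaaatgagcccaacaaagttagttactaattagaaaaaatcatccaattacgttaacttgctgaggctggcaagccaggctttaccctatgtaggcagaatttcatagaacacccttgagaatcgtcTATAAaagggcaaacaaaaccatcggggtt
Krt71: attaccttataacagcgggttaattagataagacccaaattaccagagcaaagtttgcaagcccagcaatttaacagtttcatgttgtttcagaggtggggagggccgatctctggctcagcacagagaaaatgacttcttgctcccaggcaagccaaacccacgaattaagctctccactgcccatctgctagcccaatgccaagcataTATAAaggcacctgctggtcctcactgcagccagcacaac

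Each is the 250 bases before the annotated start in RefSeq GRCm38.p6, 5′ to 3′ on the gene's strand: chr16:89403775-89404024 for Krtap21-1, chr16:88874270-88874519 for Krtap19-2, chr11:99322952-99323201 for Krt25 and chr15:101743098-101743347 for Krt71, all on the minus strand. The letters TATAA were searched on the gene's strand only, first from 20 to 45 bases before the start. In that window 35 of 51 promoters on the hair keratin and keratin-associated protein list held it (68.6%), against 3.89% of all 32851 promoters. The match lies 61 bases before the start in Krtap21-1 and 71 in Krtap19-2, outside that window. A window of 20 to 100 bases was therefore added after these matches had been seen. In it the shares were 94.1% (48 of 51) and 6.83%. On the inner root sheath list, which holds Krt25 and Krt71, the share was 37.5% (6 of 16) in both windows. The letters CTTTGA, a core of LEF/TCF sites, were searched on either strand and anywhere in the 250 bases. They were in 29.4% of the 51 promoters of the hair keratin and keratin-associated protein list and 13.8% of all. Many of these genes are neighbouring copies with similar sequence, so their promoters are not independent of each other.

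Krtap21-1, which encodes a high glycine-tyrosine protein, had the largest difference among genes measured on both arrays. Its level was at 10.80 in the mutant and 7.69 in WT at 3 h, an 8.62-fold difference. Both unirradiated WT skin (6.47) and WT skin at 24 h (6.76) were below background, and the mutant at 24 h was at 7.80. The mutant at 3 h therefore stood above all other arrays.

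Krtap19-2 was at 10.52 in the mutant and 7.18, below background, in WT, which is at least 10.1-fold higher. It was below background on the 3 remaining arrays. Other keratin-associated genes that only the mutant array measured were Krtap1-5 (at least 4.25-fold higher), Krtap15 (at least 4.10-fold) and Krtap1-4 (at least 3.46-fold). The probes named Gm10228 (at least 4.03-fold) and Gm11563 (4.81-fold, 10.15 in the mutant and 7.88 in WT) were also higher.

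Among the acidic and basic hair keratins, Krt86 was at 9.91 in the mutant and 7.76 in WT, a 4.44-fold difference. Krt33a was at 9.74 in the mutant and 7.59 in WT, a 4.43-fold difference. Krt34 was at 8.70 in the mutant and 7.36 in WT. All 3 were below background in unirradiated WT skin and higher on the mutant than on the WT array at 3 h. Krt31 (9.02 in the mutant, 8.54 in WT) and Krt35 (7.47 in the mutant, 7.64 in WT) did not reach 2-fold. Keratin-associated genes come in families of near-identical copies, so a probe may read more than the gene it is named for.

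The inner root sheath is the layer that moulds the growing shaft. Its 12 genes compared had 4 members past 2-fold upward (Krt25, Krt71, Crym and Crnn), against 1.13% of all genes, 0 downward and a median of 0.92. Among the 8 measured on both arrays 3 were higher and the median was 0.50. Over the 4 above background on all 5 arrays the median was 0.01. Krt25, a keratin of all inner root sheath layers, was at 11.06 in the mutant and 9.69 in WT, 2.59-fold apart, with unirradiated WT skin below background at 6.84. Krt71, its basic partner, was at 9.83 in the mutant, 8.37 in WT and 5.76, below background, in unirradiated WT skin. WT at 3 h thus stood between the mutant and unirradiated WT for both genes.

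Crym, a thyroid hormone-binding protein of the follicle, was at 8.67 in the mutant and 7.61 in WT. Crnn, cornulin, was at 7.80 in the mutant and 6.35, below background, in WT, at least 1.67-fold higher. Krt73 (9.16 in the mutant, 8.26 in WT) and Krt27 (8.04 in the mutant, 7.09 and below background in WT) lay just under the threshold. S100a3, a calcium-binding protein of the hair cuticle, was at 9.67 in the mutant and 8.13 in WT, 2.91-fold apart. Prr9, a proline-rich gene, was at 9.87 in the mutant and 8.35 in WT.

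The list of hair matrix genes and follicle regulators, which also holds S100a3, differed less. Of 10 compared, 2 were higher (S100a3 and Sostdc1), against 1.13% of all genes, and the median was 0.05. Among the 6 above background on both arrays 1 was higher and the median was 0.11. Sostdc1, which blocks BMP and WNT signalling, was at 7.98 in the mutant and 6.08, below background, in WT, at least 1.88-fold higher. Unirradiated WT skin had 8.20, so WT at 3 h was the low array. Sox9, a factor of follicle stem cells, was at 7.61 in the mutant and 7.23 in WT. In all, 29 of the 78 higher genes were on the hair lists, which hold 31, 12 and 10 of the genes compared. Of the 78, 20 had a Krtap symbol. On chromosome 11 lay 17 of the 78 and on chromosome 16 lay 11, where clusters of hair genes sit. Of all 6930 genes compared, 609 lay on chromosome 11 and 214 on chromosome 16. In bulk skin, fewer cells of a type and less RNA per cell cannot be told apart, and the labels do not give the follicle content of each skin piece.

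**Figure D2:**
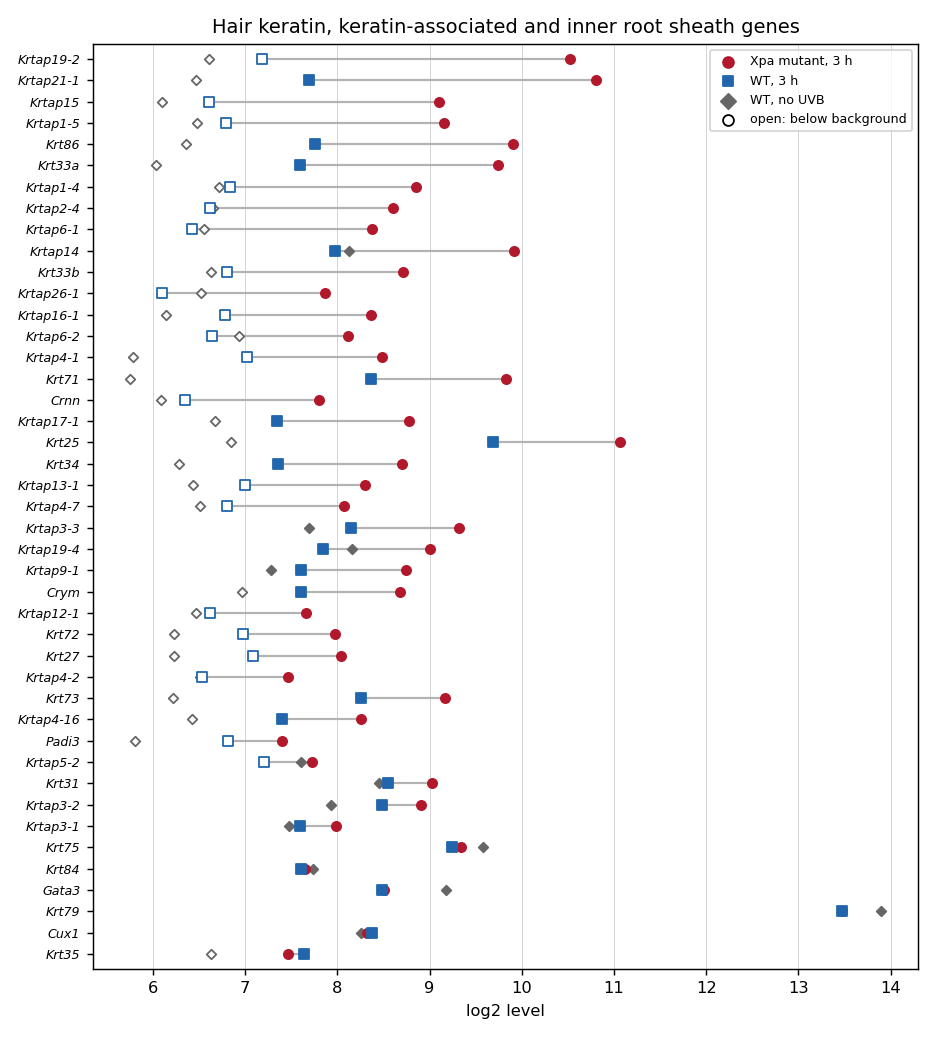
Log2 levels (x axis) of the hair keratin, keratin-associated and inner root sheath genes compared, ordered by difference, for Xpa mutant at 3 h (red circles), WT at 3 h (blue squares) and unirradiated WT (grey diamonds), with open symbols below background. The mutant is to the right of WT for most genes, as in Krtap21-1 (10.80 against 7.69), while Krt79, Krt84, Cux1 and Gata3 show nearly equal levels.

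Beyond the hair lists, 49 genes were at least 2-fold higher. Mup1, a major urinary protein that carries small lipophilic molecules and belongs to a family of near-identical copies, was at 12.68 in the mutant, 10.85 in WT and 8.38 in unirradiated WT skin. A second probe of Mup1 was below background on every array. Mettl1, a methyltransferase of transfer RNA, was at 9.73 in the mutant and 7.93 in WT, 3.47-fold apart, and at 7.66 in the mutant and 7.54 in WT at 24 h. Daglb, a diacylglycerol lipase, was at 8.44 in the mutant and below background on the 4 other arrays, at least 2.59-fold higher than WT at 3 h.

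Skeletal muscle genes, from the muscle layer under the skin, had 9 of 36 members below 0, against 48.3% of all genes, and a median of 0.32. At least 2-fold higher was 1, against 1.13% of all genes, and 0 were lower. That gene was Apobec2, a muscle member of the deaminase family. It was at 8.72 in the mutant and 5.97, below background, in WT, at least 3.13-fold higher, and at 9.43 in the mutant and 6.57, below background, in WT at 24 h. Muscle creatine kinase, Ckm, was at 12.45 in the mutant, 11.50 in WT and 11.98 in unirradiated WT skin. The mutant array at 3 h was the highest for Ckm and the WT array at 3 h was below unirradiated WT. Adipocyte genes had a median of 0.18 with 0 of 24 past 2-fold in either direction, and Pck1, an enzyme of glycerol synthesis in fat, was at 8.59 in the mutant, 7.62 in WT and 8.75 in unirradiated WT skin. Their part in the other differences was not tested.

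The largest group downward was the small proline-rich genes, precursors of the cornified envelope that keratinocytes make under stress. Past 2-fold, 6 of 11 compared were lower in the mutant and 0 higher, against 0.996% of all genes lower. Their median difference was -1.0 and 10 of 11 lay below 0. Among the 7 above background on both arrays, 2 were lower and the median was -0.80. The promoters of 3 members are shown because they share both a TATA box and the letters TGANTCA, the core of an AP-1 site, searched on both strands and set in capitals.

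Sprr2e: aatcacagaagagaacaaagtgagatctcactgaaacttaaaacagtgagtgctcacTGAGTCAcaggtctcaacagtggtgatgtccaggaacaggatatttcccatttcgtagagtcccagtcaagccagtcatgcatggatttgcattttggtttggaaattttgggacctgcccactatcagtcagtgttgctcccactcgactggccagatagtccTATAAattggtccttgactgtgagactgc
Sprr2i: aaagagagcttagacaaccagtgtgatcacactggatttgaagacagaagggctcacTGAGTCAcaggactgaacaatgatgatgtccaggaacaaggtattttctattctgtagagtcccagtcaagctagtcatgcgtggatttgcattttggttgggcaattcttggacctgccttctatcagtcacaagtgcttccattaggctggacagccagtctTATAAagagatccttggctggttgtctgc
Sprr2h: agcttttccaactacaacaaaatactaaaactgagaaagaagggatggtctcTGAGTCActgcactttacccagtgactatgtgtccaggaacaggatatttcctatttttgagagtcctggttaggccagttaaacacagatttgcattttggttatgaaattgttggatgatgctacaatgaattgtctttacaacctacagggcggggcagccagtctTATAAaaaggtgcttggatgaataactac

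These are chr3:92351893-92352142, chr3:92407741-92407990 and chr3:92385435-92385684 of GRCm38.p6, plus strand, 250 bases before the RefSeq start. The AP-1 letters lie 193 bases before the start in Sprr2e and Sprr2i and 198 in Sprr2h. They were in 9 of 13 promoters of the list (69.2%) and in 6.75% of all promoters. Without gaps, 70.8% of positions were identical between Sprr2e and Sprr2i, 39.6% between Sprr2e and Sprr2h and 37.6% between Sprr2i and Sprr2h. The Sprr2 transcripts are near-identical copies, so a probe may read more than the gene it is named for.

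Sprr2e was at 7.52 in the mutant, 9.11 in WT and 6.56, below background, in unirradiated WT skin, 3.02-fold lower in the mutant than in WT. Sprr2i was at 6.51, below background, in the mutant and 8.25 in WT, at least 2.29-fold lower. Sprr2g was at 7.03, below background, in the mutant and 8.34 in WT, at least 2.43-fold lower. WT at 3 h was the higher array for each, and unirradiated WT was below background for all 3.

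Sprr2d and Sprr2f were at least 2.01-fold lower in the mutant, and the pseudogene Sprr2j-ps was 2.31-fold lower. Sprr2h (9.95 in the mutant, 10.86 in WT), Sprr2b (8.36 in the mutant, 9.11 in WT) and Sprr1b (10.36 in the mutant, 11.16 in WT) were lower without reaching 2-fold. Sprr4 was the member above 0, at 8.59 in the mutant and 8.47 in WT. At 24 h 2 of the 11 were at least 2-fold lower in the mutant and the median was -0.30. These were Sprr1a (11.49 in the mutant, 12.51 in WT) and Sprr1b (11.45 in the mutant, 12.68 in WT). The Sprr2 genes differed by less than 2-fold at 24 h: Sprr2e was at 10.08 in the mutant and 10.16 in WT, and Sprr2f at 10.29 in the mutant and 10.39 in WT.

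The late cornified envelope genes, neighbours of the Sprr genes in the epidermal differentiation complex, did not follow them. Among 14 compared, 0 were past 2-fold and the median was 0.27, while at 24 h the median was -2.32 and 13 of 14 were lower. Lce1m was at 12.18 in the mutant and 11.54 in WT at 3 h, and at 7.39 in the mutant and 9.94 in WT at 24 h. Lce3c, of the injury-responsive Lce3 group, was at 9.48 in the mutant, 10.15 in WT and 8.87 in unirradiated WT skin. Trp63, the p63 factor of basal keratinocytes, was at 8.09 in the mutant, 8.90 in WT and 9.33 in unirradiated WT skin, 1.76-fold lower. A second Trp63 probe was below background on both arrays at 3 h.

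**Figure D3:**
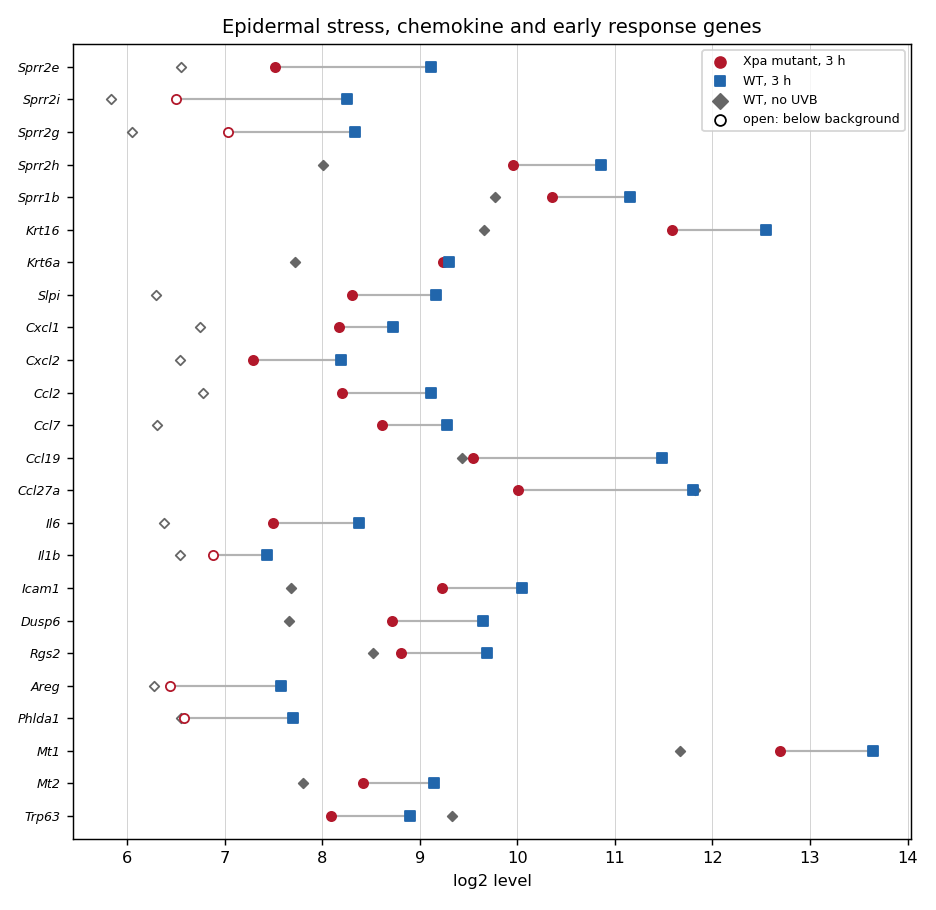
Log2 levels (x axis) of epidermal stress, chemokine, early response and metallothionein genes for Xpa mutant at 3 h (red circles), WT at 3 h (blue squares) and unirradiated WT (grey diamonds), with open symbols below background. The genes drawn are a selection in which the mutant lies left of WT for each, from 9.55 against 11.48 for Ccl19 to 9.24 against 9.30 for Krt6a. Genes of the same lists that were higher in the mutant, such as Cxcl14, Pf4, Mt4, Krt17 and Sprr4, were not drawn.

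Chemokines recruit leukocytes to the skin. The CXC list had 0 of 8 compared genes past 2-fold, 5 below 0 and a median of -0.28, which was -0.024 without the filter on dim probes. Over all genes 48.3% lay below 0. Cxcl1, the neutrophil attractant named in the series title, was at 8.17 in the mutant, 8.72 in WT and 6.75, below background, in unirradiated WT skin, a 1.46-fold difference. Cxcl2, which acts on the same receptor, was at 7.30 in the mutant and 8.19 in WT, a 1.86-fold difference. Both irradiated arrays were above background for both genes, where unirradiated WT was not. Cxcl5 and the receptor Cxcr2 were below background on both arrays. Pf4, a platelet chemokine, was at 7.89 in the mutant and 7.41 in WT, and Cxcl14, made by epithelia, at 7.53 in the mutant and 6.88, below background, in WT.

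The stretch before each start is shown for these genes because a kB site, bound by NF-kB factors, occurs there. It was searched on both strands as GGGA, any 2 bases, then TTCC.

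Cxcl1: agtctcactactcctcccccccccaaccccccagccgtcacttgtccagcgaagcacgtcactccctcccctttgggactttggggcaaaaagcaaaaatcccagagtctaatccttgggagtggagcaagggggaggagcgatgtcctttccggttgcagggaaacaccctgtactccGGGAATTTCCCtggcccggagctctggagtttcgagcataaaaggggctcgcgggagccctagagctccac
Cxcl2: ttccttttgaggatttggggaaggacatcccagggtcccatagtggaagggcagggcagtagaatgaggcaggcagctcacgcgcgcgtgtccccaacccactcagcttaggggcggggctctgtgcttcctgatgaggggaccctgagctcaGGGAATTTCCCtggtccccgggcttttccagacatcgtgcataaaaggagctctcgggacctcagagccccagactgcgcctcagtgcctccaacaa

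They are chr5:90890995-90891244 and chr5:90903649-90903898 of GRCm38.p6, plus strand, 250 bases before the RefSeq start. The capitals mark overlapping matches on the 2 strands, which begin 71 and 70 bases before the start in Cxcl1 and 97 and 96 in Cxcl2. The letters were in 4 of 19 promoters of the CXC list (21.1%), in 10.3% of the NF-kB list and in 1.21% of all promoters.

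The CC list had 2 of 15 genes at least 2-fold lower, against 0.996% of all genes, and 0 higher. Of the 15, 13 lay below 0, against 48.3% of all genes. The median was -0.41, but -0.14 without the filter on dim probes and -0.085 over the 5 genes above background on all 5 arrays. The 2 were Ccl19, which guides dendritic and T cells, and Ccl27a, a keratinocyte attractant of skin-homing T cells. Ccl19 was at 9.55 in the mutant, 11.48 in WT and 9.43 in unirradiated WT skin, 3.81-fold lower in the mutant than in WT. Ccl27a was at 10.00 in the mutant, 11.80 in WT and 11.83 in unirradiated WT skin, 3.47-fold lower in the mutant. So WT at 3 h was the high array for Ccl19, and the mutant was the low array at 3 h for Ccl27a.

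Ccl27a also differed at 24 h, with 8.15 in the mutant and 10.04 in WT, and a second probe of it was below background on all arrays. Both genes sit with Il11ra1 in a block of chromosome 4 that holds near-identical gene copies, so their values are uncertain. One Il11ra1 probe was at 9.49 in the mutant and 10.41 in WT and the other at 7.76 in the mutant and 8.04 in WT. Xpa is on the same chromosome, and among the 30 compared genes nearest before it 3 were lower (Rpp25l, Ccl27a and Ccl19) and 1 higher (Enho), against 0 lower and 2 higher (Nipsnap3b and Mup1) among the 30 after it. Of all 430 genes compared on chromosome 4, 7 were higher and 6 lower.

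The monocyte attractants were lower within 2-fold. Ccl2 was at 8.20 in the mutant, 9.11 in WT and 6.78, below background, in unirradiated WT skin. Ccl7 was at 8.61 in the mutant, 9.28 in WT and 6.31, below background, in unirradiated WT skin. For both, the mutant lay between unirradiated WT and WT at 3 h, and at 24 h the order of the genotypes was the opposite, with Ccl7 at 9.30 in the mutant and 7.96 in WT.

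The cytokine list had 0 of 26 genes past 2-fold and a median of -0.23. Il6 was at 7.50 in the mutant, 8.38 in WT and 6.38, below background, in unirradiated WT skin, a 1.85-fold difference. Il1b was at 6.88, below background, in the mutant and 7.43 in WT, at least 1.29-fold lower, and Tnf was below background on both arrays. Ptgs2, the inducible cyclooxygenase, was at 6.69, below background, in the mutant and 7.19 in WT.

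NF-kB carries many of these signals, and its pathway and feedback genes leaned one way without large differences. Of 17 compared, 0 were past 2-fold, 17 lay below 0, and the median was -0.32, against 48.3% of all genes below 0. Among the 14 above background on both arrays 14 lay below 0 and the median was -0.27. Without the filter on dim probes the median was -0.21. Icam1, the leukocyte adhesion molecule, was at 9.23 in the mutant, 10.05 in WT and 7.68 in unirradiated WT skin, 1.77-fold lower in the mutant. Nfkb1, a subunit of the factor itself, was at 7.58 in the mutant and 8.15 in WT. Birc2, an inhibitor of apoptosis in the pathway, was at 7.92 in the mutant and 8.47 in WT.

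Early response genes also leaned downward. Of 34 immediate-early genes, 1 was at least 2-fold lower, against 0.996% of all genes, and 0 higher. Of the 34, 25 lay below 0, against 48.3% of all genes, and the median was -0.26. Among the 27 above background on both arrays 0 were past 2-fold, 19 lay below 0 and the median was -0.24. Phlda1, the gene past the threshold, was at 6.58, below background, in the mutant and 7.70 in WT, at least 1.56-fold lower. Dusp6, a phosphatase that dampens ERK, was at 8.71 in the mutant, 9.65 in WT and 7.66 in unirradiated WT skin. Rgs2, a brake on G protein signals, was at 8.81 in the mutant, 9.69 in WT and 8.53 in unirradiated WT skin. WT at 3 h was the highest of these 3 arrays for both.

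Among EGF receptor ligands, Areg was the single member of 12 past 2-fold, against 0.996% of all genes lower. It was at 6.44, below background, in the mutant and 7.58 in WT, at least 1.44-fold lower. The list's median was -0.26. Rcan1, a calcineurin regulator, was at 7.0, below background, in the mutant and 8.16 in WT, at least 2.15-fold lower. Dusp8, a phosphatase of stress kinases, was at 6.96, below background, in the mutant and 8.01 in WT, at least 1.94-fold lower. Timp1, an inhibitor of matrix metalloproteases, was at 6.82, below background, in the mutant and 8.0 in WT, at least 1.92-fold lower.

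Serpinb2, a plasminogen activator inhibitor, was at 8.28 in the mutant, 9.31 in WT and 8.65 in unirradiated WT skin, 2.03-fold lower. The other genes above background on both arrays and at least 2-fold lower were the surface protein gene Plet1 (2.18-fold), Rpp25l (2.19-fold), Ralgds (2.12-fold), the semaphorin Sema4c (2.05-fold), the junction protein gene Cxadr (2.02-fold) and the lactate carrier Slc16a1 (2.00-fold). Cxadr was read by the brightest of its 3 probes. With the probes of each gene averaged, 67 of the 69 lower calls remained, and Cxadr was not among them. Plet1 was at 8.21 in the mutant, 9.33 in WT and 8.46 in unirradiated WT skin. Tti2, next in rank, was just short of the threshold at 9.56 in the mutant and 10.56 in WT.

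Genes of DNA damage and repair differed little. The 24 nucleotide excision repair genes compared had 1 member past 2-fold upward, against 1.13% of all genes, 0 downward and a median of 0.01. It was Ccnh, the cyclin of the kinase in repair factor TFIIH, at 7.38 in the mutant and 6.08, below background, in WT, which is at least 1.25-fold higher. Gtf2h5, the smallest TFIIH subunit, was at 11.13 in the mutant and 11.69 in WT. Of 23 p53 targets, 0 were past 2-fold and the median was 0.04.

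Cdkn1a, the p21 cell cycle inhibitor, was at 10.71 in the mutant, 10.92 in WT and 9.86 in unirradiated WT skin. Pmaip1, the pro-apoptotic Noxa, was at 7.59 in the mutant and 8.39 in WT. Both irradiated arrays were above unirradiated WT for both genes. Mdm2 was below background on both arrays. Of 23 cell cycle genes 1 was lower, against 0.996% of all genes: the phosphatase gene Cdc25b. It was at 6.17, below background, in the mutant and 7.62 in WT, at least 1.47-fold lower.

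Ribosome biogenesis and RNA polymerase I genes had a median of -0.21, with 23 of 28 below 0, against 48.3% of all genes. Of the 28, 1 was at least 2-fold lower, against 0.996% of all genes. Among the 23 above background on both arrays 18 lay below 0, 0 were past 2-fold and the median was -0.17. The gene past 2-fold was Polr1b, a large subunit of RNA polymerase I. It was at 5.83, below background, in the mutant and 7.57 in WT, at least 1.42-fold lower. Nop56, a nucleolar protein, was at 8.96 in the mutant, 9.62 in WT and 8.24 in unirradiated WT skin. Respiratory chain and proteasome genes leaned the other way, with 15 of 65 and 8 of 37 below 0, against 48.3% of all genes. The median was 0.13 in each list, and 0 were past 2-fold in either. Sdhc, of respiratory complex II, was at 9.67 in the mutant and 9.16 in WT. Of 56 ribosomal protein genes 0 were past 2-fold, with a median of -0.06.

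Mt1 and Mt2, metallothioneins that bind zinc and are induced by stress, were lower in the mutant at 3 h, within 2-fold. Mt1 was at 12.70 in the mutant, 13.64 in WT and 11.67 in unirradiated WT skin, 1.93-fold lower. Mt2 was at 8.42 in the mutant, 9.15 in WT and 7.81 in unirradiated WT skin. At 24 h Mt1 was at 13.59 in the mutant and 11.81 in WT, the opposite order. Mt4, the form of differentiating epithelium, was at 9.18 in the mutant and 8.44 in WT at 3 h.

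Markers of leukocytes gave few values. Of 24 neutrophil genes, 2 were compared, both also made by other cells: S100a8, a calprotectin subunit, was at 7.28 in the mutant and 7.99 in WT, and the other was Il1b. Macrophage and complement genes had a median of 0.18 over 10 genes, lymphocyte genes 0.00 over 8 and mast cell genes 0.06 over 6, with 0 past 2-fold in any of the 3. Collagen genes had a median of -0.08 over 16, also with 0 past 2-fold.

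**Figure D4:**
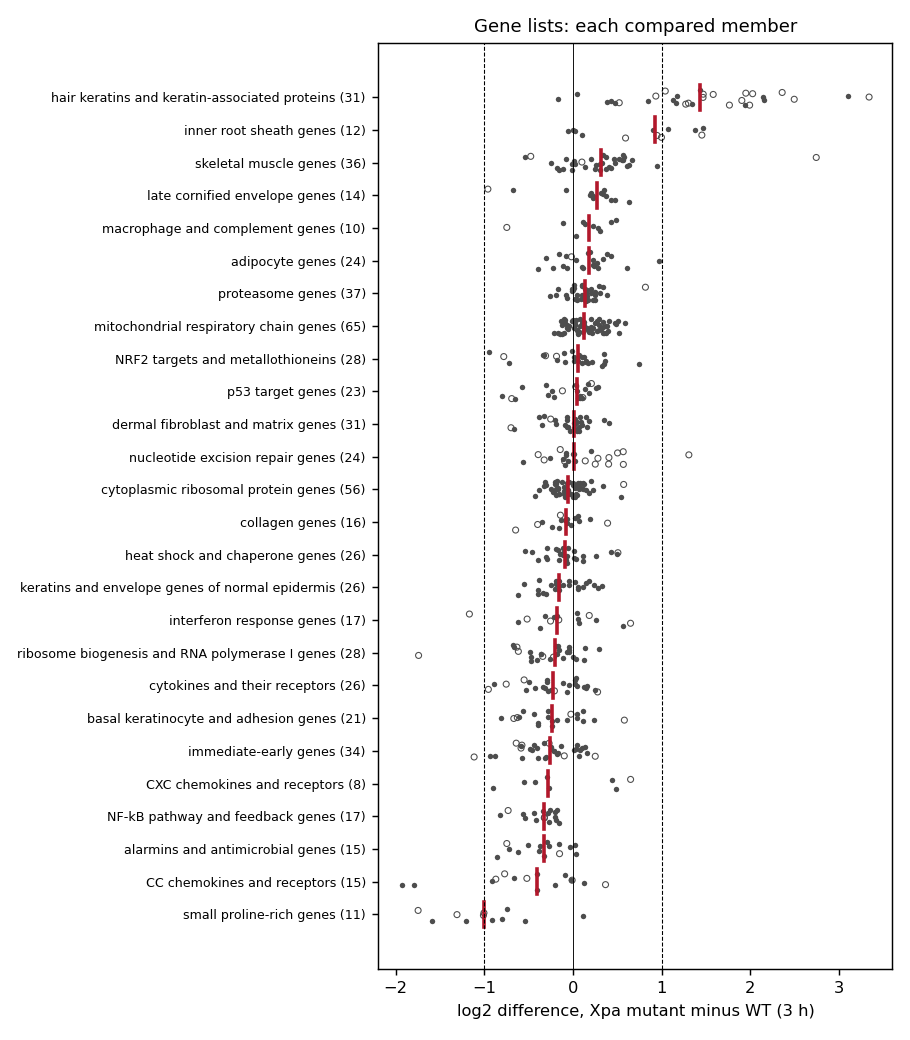
Log2 difference at 3 h (x axis, Xpa mutant minus WT) of each compared member in 26 gene lists, with the number compared in brackets. Filled points were above background on both arrays, open points on 1, red bars are medians and dashed lines mark 2-fold. The hair list (median 1.43) and the small proline-rich list (median -1.0) lie at the ends.

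The 24 h arrays give another look at the genotype difference on arrays not used at 3 h. Of the 78 higher genes, 41 were above background at 24 h on at least 1 array, and 14 of them were at least 2-fold higher there too (34.1% of the 41, and 17.7% of the 79 genes higher at 24 h). The share of all 6236 genes higher at 24 h was 1.27%. Of the 14, 8 were on the hair lists: Krtap21-1, Krt86, Krtap16-1, S100a3, Krt71, Krtap17-1, Krt25 and Crym. Genes outside the hair lists included Gm11563, Apobec2, Nipsnap3b, Mup1 and Prr9. Of the 8, only Krt25 was above background on both arrays at 24 h. The rest were below background in WT, with bounds from 1.33-fold (Krtap16-1) to 2.04-fold (S100a3), and only S100a3 reached 2-fold. Gm11563 (at least 1.67-fold) and Nipsnap3b (at least 1.93-fold) were also below background in WT. So were Apobec2 (at least 5.22-fold) and Prr9 (at least 2.53-fold).

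Krt25 was at 9.41 in the mutant and 7.98 in WT at 24 h, 2.70-fold apart. Mup1 was at 12.28 in the mutant and 9.77 in WT at 24 h. Krt33a and Krtap19-2, among the most different hair genes at 3 h, were below background on both arrays at 24 h. Krtap14 was at 9.92 in the mutant and 7.98 in WT at 3 h, and at 7.62 in the mutant and 7.06, below background, in WT at 24 h.

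Of the 69 lower genes, 50 were comparable at 24 h and 3 were lower there too (6% of the 50, and 1.92% of the 156 genes lower at 24 h), against 2.5% of all genes lower. They were Ccl27a, Rpp25l and Serpinb2. Rpp25l was at 8.13 in the mutant and 9.26 in WT at 3 h, and at 8.32 in the mutant and 9.34 in WT at 24 h. Ccl19 was at 9.49 in the mutant and 10.09 in WT at 24 h. Cxcl1 was at 9.27 in the mutant and 8.35 in WT at 24 h, and Cxcl2 at 8.17 in the mutant and 6.50, below background, in WT.

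**Figure D5:**
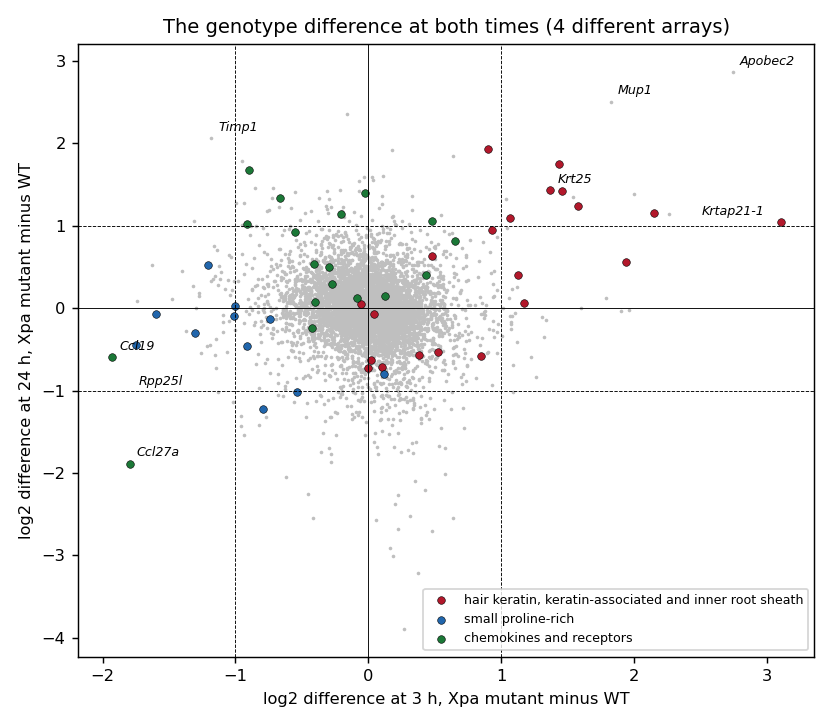
Log2 difference (Xpa mutant minus WT) at 3 h (x axis) and at 24 h (y axis) for the 6236 genes compared at both times, with dashed lines at 2-fold. Many hair genes (red) lie to the upper right and Ccl27a to the lower left, and the Sprr2 genes, among the blue points, lie to the left and within 2-fold at 24 h.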

How the data were processed

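The authors deposited scanner tables that give, per the file headers, spot and local background intensity and a quality flag from CodeLink Expression Analysis 5.0.0.31312. Probes were named through the platform annotation or a RefSeq accession of GRCm38.p6. Here limma 3.58.1 in R 4.3.3 was applied to the intensity: it was corrected for background (normexp, offset 50), quantile normalized over the gene probes of all 5 arrays and taken to log2. These steps were run on simulated arrays with known changes placed in bright spots only, which leaves calls on dim genes untested. The rest used Python 3.11.15, numpy 2.4.6 and pandas 2.3.3. A probe was below background when flagged low. With 1 array per group there is no replicate, so no p-value or SD of a difference is given, and anything particular to an array cannot be told apart from its group. The number of arrays limits the precision. Gene probes above background were 23.5% on the mutant array and 24.2% on the WT array.

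The genes named are a set of inflammation and damage genes, the 12 highest and 12 lowest measured on both arrays, the 10 highest and 10 lowest bounds, in each of 49 lists the 4 largest differences and any past 2-fold, and those past 2-fold at both times. One gene that the rule names is not reported here. Further members of a list and neighbours of Xpa were chosen after their values were seen. The members and lists were chosen with earlier results of these data known.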

Additional observations from a re-analysis of the deposited data

Results flagged for a closer look

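For 3 genes the genotype difference was past 2-fold in opposite directions at 3 h and 24 h, with 1 array per group, so the difference between the times was not tested. Timp1 was at -1.19 at 3 h (Xpa mutant minus WT) and 2.06 at 24 h, a change of 3.25 on the log2 scale. Its levels at 24 h were 9.10 in the mutant and 7.04, below background, in WT. Ddhd2, a phospholipase gene, was at -1.31 at 3 h and 1.06 at 24 h, a change of 2.37. Clca2, of the calcium-activated chloride channel regulator family, was at 1.09 at 3 h and -1.02 at 24 h, a change of -2.10. Each of the 3 was below background on 1 array at each time.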

How the results depend on the processing

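The number of genes at least 2-fold higher (78) and lower (69) in the mutant moved with the settings. Direction was followed for the 222 compared genes that the naming rule picks, and 0 of their differences past 2-fold changed it. Plain background subtraction gave 211 higher and 228 lower, an offset of 16 gave 148 and 160, and the authors' deposited normalized table gave 211 and 229. No background correction gave 40 and 12, so that 76.9% of the calls were higher, against 53.1% in the values reported. No filter on dim probes gave 144 and 123. Requiring both arrays above background gave 18 and 11 (62.1% higher), and all 5 gave 3 and 9 (25% higher). Leaving out probes with other flags gave 49 higher and 48 lower. A threshold of 1.5-fold gave 275 and 354 and one of 3-fold 23 and 6. Without the hair lists, a choice made after seeing the data, 49 were higher. Of the 78 and 69, 40 and 12 were called under every background and scaling setting.

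The 23 hair keratin and keratin-associated genes became 9 with both arrays above background, 1 with all 5 and 13 without other flags. The 6 small proline-rich genes became 2 and 0 with both arrays and with all 5 above background. Fewer genes are tested under these filters. Of 485 list medians recomputed, 458 moved by no more than 0.184 and 27 by more. That value is the SD of a single-spot difference between the arrays, from the control spots, and covers spot noise only. For the 1925 recomputed differences of genes that the rule names, these counts were 1526 and 399. The sign changed in 29 of the 485 values, over 12 lists whose reported medians all lay within 0.0997 of 0 (nucleotide excision repair 0.01, -0.076 with both arrays above background), and in 2 gene differences, H2-Ab1 (-0.42, 0.055 without other flags) and Cd1d1 (0.16, -0.025 without background correction). No paired analysis was possible because each group holds 1 array. Signal over background limits dim genes, for which a call depends on how background is treated.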
